A study of Mus musculus with 47 samples.

Results

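Tumours made by inhibiting E proteins and by losing one of them were compared: 5 mouse T-cell lymphoblastic tumours driven by Tal1 (2 titled Tal1 transgenic and 3 titled Tal1-LMO2 double transgenic) and 4 tumours lacking E2A (2 titled E2A knockout and 2 titled rag E2A knockout). They were chosen by those titles alone and are 9 of the 47 tumours of the series. Each tumour gave 1 Affymetrix array of total RNA, read as a signal (a probe set's brightness, on a linear scale). The Tal1-driven tumours carry a Tal1 transgene, with or without an LMO2 transgene, and the E2A-deficient tumours lack E2A, with or without a rag mutation whose gene is not given. All 9 are labelled TLX1 negative lymphoma. As a reference, 26 tumours of 7 other TLX1-negative backgrounds were used, whose titles name neither Tal1, LMO nor E2A: p53 knockout, ThPOK transgenic, Nup98HoxD13 transgenic, Pokemon transgenic, Ikaros Plastic, beta-catenin transgenic, and Cdkn2a knockout with retroviral insertional mutagenesis. Strain, age, sex, the promoters of the transgenes and whether the tumours of a background came from separate mice are not stated in the labels. No normal thymus was compared, so every difference is between tumours, and p-values measure only the spread between these samples, which may be technical.

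E proteins are basic helix-loop-helix transcription factors that bind E-box sequences as dimers. In thymocytes E2A, the product of Tcf3, and HEB, the product of Tcf12, drive the genes of antigen receptor assembly and early T-cell differentiation and restrain proliferation. Tal1 is a helix-loop-helix protein of blood stem cells that pairs with E proteins and lowers their activity in T cells, LMO2 is a bridging protein of the Tal1 complex, and Id proteins hold E proteins off DNA. Mice without E2A develop T-cell lymphoma, so the comparison asks how far inhibition of E proteins and loss of 1 of them give the same tumour profile.

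The targeted gene was read first. Tcf3 signal was 443 and 662 in the Tal1 transgenic tumours, 1010, 722 and 612 in the Tal1-LMO2 tumours, 146 and 275 in the E2A knockout tumours and 276 and 227 in the rag E2A knockout tumours. All 4 E2A-deficient tumours lay below all 5 Tal1-driven ones, and the other 2 Tcf3 probe sets separated the groups likewise. The transgenes could not be checked in this way. The Tal1 probe set read 3.98 to 19.1 in the Tal1-driven and 4.43 to 16.6 in the E2A-deficient tumours, below the filter on low signals. Lmo2 read 13.6, 17.3 and 19.8 in the Tal1-LMO2 tumours, no more than the 14.9 to 28.7 of the E2A-deficient ones. Whether those probe sets detect the transgenes' RNA is not stated in the labels. Rag1 read 2070 and 1610, and Rag2 131 and 148, in the rag E2A knockout tumours, and since the deleted part is not given these values check nothing. T-lineage markers were present, with Cd3e at 1810 to 3550 and Thy1 at 3210 to 12000 in the 9 tumours, while Cd2 was at 27 in Tal1 transgenic 1 and 82.9 in rag E2A knockout 2 against 495 to 2390 in the other 7. In the reference, the 3 tumours labelled Nup98HoxD13 read Lmo1 at 586 to 2530, against at most 173 in its other backgrounds, and p53 knockout 2 stood apart, with correlations of 0.572 to 0.718 to the other 46 arrays (median 0.643). Ikaros Plastic 2 came next, at 0.653 to 0.826 (median 0.714). The counts of called genes against the reference are also given without each of these.

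The Tal1-driven and E2A-deficient tumours had like profiles. Across 8810 genes, log2 signals of a Tal1-driven and an E2A-deficient tumour correlated at 0.901 to 0.951 (median 0.932, 20 pairs), against 0.907 to 0.952 (median 0.927, 10 pairs) among Tal1-driven tumours and 0.912 to 0.956 (median 0.939, 6 pairs) among E2A-deficient ones. These correlations are across genes, which share the arrays and their scaling, and pairs share tumours. The median correlation with the reference tumours was lower, at 0.884 for Tal1-driven and 0.874 for E2A-deficient tumours. Nearest neighbours among the 47 arrays crossed the groups. Tal1 transgenic 1 was nearest to rag E2A knockout 2 (0.931), Tal1-LMO2 1 to E2A knockout 2 (0.951), and Tal1-LMO2 3 and E2A knockout 1 to each other (0.95). Tal1 transgenic 2 paired with Tal1-LMO2 2 (0.952) and E2A knockout 2 with rag E2A knockout 1 (0.956). Rag E2A knockout 2 was nearest to a tumour labelled olig1-LMO1 double transgenic (0.949). The 3 tumours of that label read Lmo1 at 11.1 to 34.3, against 522 to 2340 in those labelled LMO1 transgenic. Whether these labels are right was not tested.

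**Figure D1:**
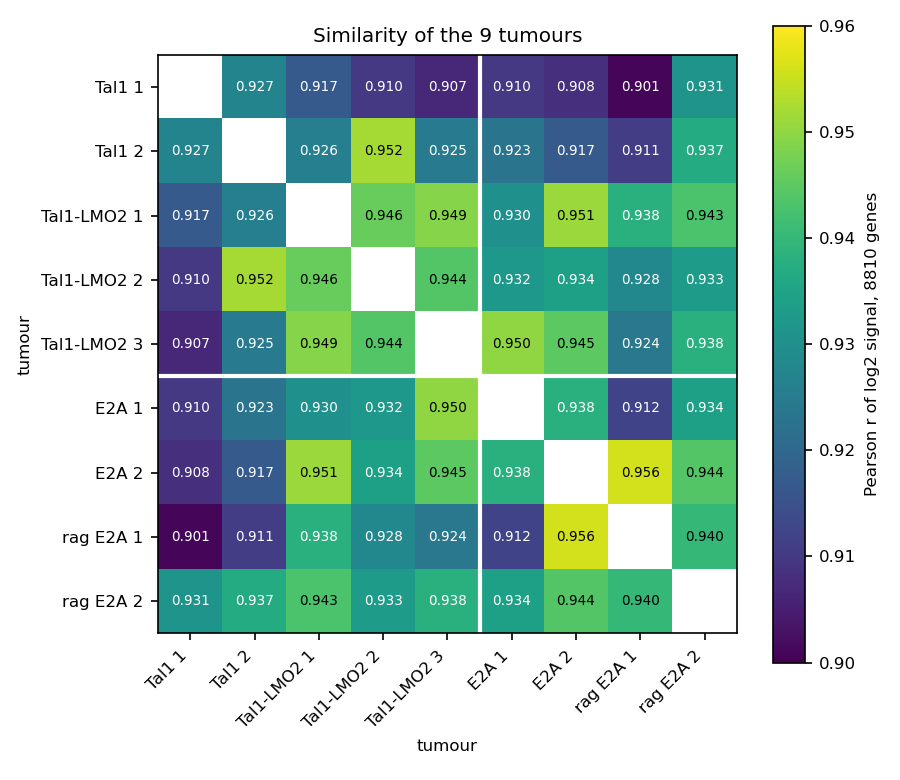
Pearson correlation of log2 signal over 8810 genes between each pair of the 9 tumours, as a heat map with tumours in both rows and columns and colour from 0.90 to 0.96. Values between the groups (0.901 to 0.951) cover nearly the same range as those within the Tal1-driven group (0.907 to 0.952).

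No gene passed an adjusted p of 0.05 between the groups (0 of 8810, 0%; limma with Benjamini-Hochberg adjustment, 5 against 4 tumours), and the lowest adjusted p was 0.16. Unadjusted p-values were under 0.05 in 516 genes (5.86%), 248 with a higher mean in Tal1-driven tumours (2.81%) and 268 with a lower one (3.04%). The median standard error of the log2 difference was 0.23, and the 95% interval lay within -1 to 1, that is within a 2-fold difference either way, for 6687 genes (75.9%). In 160 genes (1.82%) the signals of the groups did not overlap, 86 with all Tal1-driven tumours above (0.976%) and 74 with all below (0.84%). In 45 of these (0.511%) the means also differed at least 2-fold, which are values and not calls. The log2 difference had a standard deviation over genes of 0.38, against 0.59 for the mean of both groups against the reference. Choices of method or of samples moved the count of calls between 0 and 34, the 34 arising without the Tal1-LMO2 tumours, when 28 genes were higher in the 2 Tal1 transgenic tumours, among them Sparc (log2 difference 4.27) and Fabp4 (3.55), and 6 lower, among them Igf2bp3 (-3.26), Il2ra (-2.84) and Nrarp (-2.43).

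**Figure D2:**
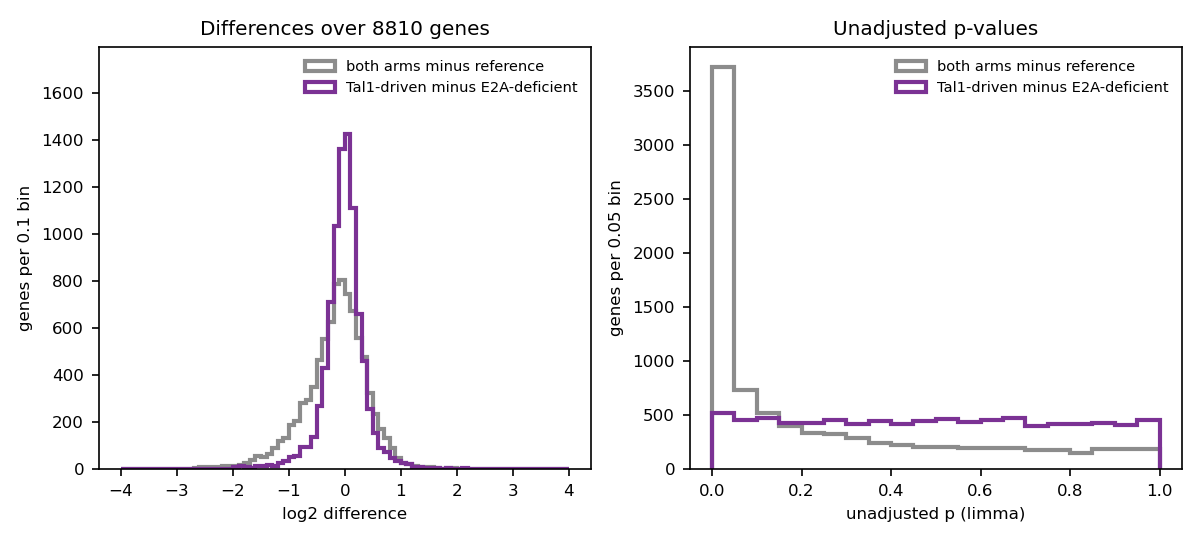
Left, number of genes per 0.1 bin of log2 difference for Tal1-driven minus E2A-deficient tumours (purple) and for both groups minus the reference (grey). Right, number of genes per 0.05 bin of unadjusted p; 516 genes fall under 0.05 in the direct comparison and 3719 (42.2%) in the comparison with the reference.

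To set the groups against other tumours without a shared control, the reference was divided by background. The differences of Tal1-driven tumours from the 9 Cdkn2a knockout tumours and of E2A-deficient tumours from the 17 tumours of the other 6 backgrounds correlated at 0.652 across 8810 genes, and at 0.564 with the references exchanged. This is a description across genes with no p, and all arrays share one scaling. The array medians of the Tal1-driven and E2A-deficient tumours all lay below those of the reference. After quantile normalization the first correlation was 0.585. The same value for other pairs of backgrounds was not computed, so no level for unrelated tumours is given.

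Of the E proteins, Tcf3 had a log2 difference of 1.50 ± 0.25 (SE; adjusted p = 0.168, limma; 95% interval 0.95 to 2.06), the direction its deletion sets. Its reference range was 203 to 1010 (median 563), so Tal1-driven tumours read Tcf3 within it, and the mean of the E2A-deficient ones fell by 1.15 on the log2 scale (adjusted p = 0.00173, limma), while in Tal1-driven tumours the difference from the reference was 0.36 (adjusted p = 0.266). HEB did not separate the groups: Tcf12 was at 4020, 3150, 3460, 2470 and 2780 in the Tal1-driven and 2970, 3230, 2600 and 2330 in the E2A-deficient tumours, a log2 difference of 0.18 ± 0.17 with an interval of -0.20 to 0.56. The Id genes, which encode the inhibitors, varied within both groups. Id3 read 55.3, 39.1, 16.3, 27.7 and 197 in the Tal1-driven and 764, 141, 23.7 and 19.7 in the E2A-deficient tumours. E2A knockout 1 alone stood above the reference median of 338, and the log2 difference between the groups was -0.82 ± 0.87.

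The genes that E proteins are known to drive in thymocytes were described through a list of 32 measured genes, of which 0 were higher and 4 lower in Tal1-driven tumours at an unadjusted p under 0.05 (against 2.81% and 3.04% of all genes), with a median log2 difference of -0.30 against 0.01 over all genes. The 4 were Notch1, Cd4, Socs3 and Trat1. Rag1, the recombinase subunit, was at 1770, 1470, 2410, 1880 and 2090 in the Tal1-driven and at 2600, 1690, 2070 and 1610 in the E2A-deficient tumours, a log2 difference of -0.04 ± 0.19 (interval -0.46 to 0.37). Ptcra, the surrogate alpha chain of the pre-T-cell receptor, ranged from 25.6 to 599 in the former and from 53.3 to 2150 in the latter, so that its difference of -1.05 ± 0.99 lay within the spread of either group. Dntt, the polymerase that adds untemplated bases at receptor junctions, ranged from 1090 to 5720 and from 1130 to 5160.

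The promoters of Ptcra and Rag1 are shown because both genes are textbook E protein targets, and that of Gjb2 because this gene, described below, had the lowest p between the groups. Each is the 150 bases before the RefSeq start site (GRCm38.p6), 5′ to 3′ on the minus strand, with matches to the E-box letters CAGCTG or CAGGTG, searched on both strands, in capitals.
Ptcra, chr17:46763713-46763862: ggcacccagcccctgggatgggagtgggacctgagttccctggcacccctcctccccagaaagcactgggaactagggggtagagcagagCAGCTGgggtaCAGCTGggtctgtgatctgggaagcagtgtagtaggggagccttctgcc
Rag1, chr2:101649533-101649682: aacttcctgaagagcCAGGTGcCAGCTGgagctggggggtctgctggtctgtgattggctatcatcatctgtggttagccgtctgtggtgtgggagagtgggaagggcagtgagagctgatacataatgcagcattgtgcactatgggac
Gjb2, chr14:57104703-57104852: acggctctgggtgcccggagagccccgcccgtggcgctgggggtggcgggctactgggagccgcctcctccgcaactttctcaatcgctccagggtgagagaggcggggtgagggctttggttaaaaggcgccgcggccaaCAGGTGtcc
The matches begin 60 and 49 bases before the Ptcra start, 135 and 128 before the Rag1 start and 9 before the Gjb2 start. In the 250 bases before a start, either motif was found in 27.7% of 32851 RefSeq promoters. Counted per gene over any of its promoters, it was in 30.6% of 27025 genes with a promoter, in 28.9% of the 7144 tested genes with one, in 11 of the 28 E protein target genes with a promoter sequence (39.3%), and in 3 of 10 of the 12 genes of lowest p named below (30%). A match describes letters and is neither a bound site nor a cause.

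The gene of lowest p, Gjb2, encodes a gap junction protein. It read 6.26, 7.24, 26.6, 14.4 and 5.44 in the Tal1-driven and 77.3, 114, 62.7 and 109 in the E2A-deficient tumours (log2 difference -1.96 ± 0.27, adjusted p = 0.16, limma). The groups did not overlap, and neither group's mean passed the test against the reference (median 26.7, highest 646). Dsp, which encodes the desmosome protein desmoplakin, read 14.9 to 24.2 in every Tal1-driven tumour against 736, 64, 185 and 411 in the E2A-deficient ones (-2.92 ± 0.53). Stard10, a lipid transfer protein, read 285, 152, 168, 89.6 and 180 against 406, 539, 1080 and 474 (-1.72 ± 0.33). Itm2a, a membrane protein of thymocytes, read 1130, 576, 920, 565 and 930 against 1910, 2840, 1370 and 2330 (-1.34 ± 0.26). In each of these 3 genes all 4 E2A-deficient tumours lay above all 5 Tal1-driven ones. Slc45a3 (-1.32 ± 0.24) and Fscn1, the actin-bundling protein fascin (-1.96 ± 0.39), had the same order of groups, although the other 3 Fscn1 probe sets gave -0.62 to 0.02.

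On the higher side were the E2A gene itself, secreted immunoglobulin genes and 3 further genes. Bex3 read 763, 1080, 892, 1070 and 983 in the Tal1-driven and 386, 365, 297 and 609 in the E2A-deficient tumours (log2 difference 1.22 ± 0.20). Edem1, a factor that directs misfolded glycoproteins to degradation, read 2580, 1610, 1660, 1490 and 1920 against 428, 1080, 826 and 711 (1.31 ± 0.25), and a second probe set gave 1.06 with overlapping groups. Fcna, the lectin ficolin A of macrophages, read 512, 725, 205, 147 and 82.1 against 13, 41.5, 4.34 and 24.9 (2.97 ± 0.57). In Fcna the E2A-deficient tumours stood apart from the reference (53.1 to 966, median 210) and fell by 2.90 against it (adjusted p = 9.85e-05, limma), while the Tal1-driven mean differed from it by 0.07. Marco, a macrophage scavenger receptor, had the same order without overlap, at 14.8, 25.8, 6.35, 55.7 and 13.6 against 1.56, 0.996, 1.45 and 4.02. Every E2A-deficient value and most Tal1-driven ones lay below the pseudocount of 15.9. Marco and Lyz2 were the 2 of 33 myeloid markers with an unadjusted p under 0.05, both higher in Tal1-driven tumours. That share is near the 5.86% of all genes. The median log2 difference of the 33 was 0.13, with 21 of them higher in Tal1-driven tumours. The summed signals of the 33 overlapped, at 4060 to 17200 and 3440 to 9930. In a bulk sample, fewer cells of a type and less RNA per cell cannot be told apart.

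Immunoglobulin genes separated the groups in part of their probe sets. Igkv8-30, a kappa variable segment, read 50.9, 198, 188, 279 and 752 in the Tal1-driven and 1.93, 7.6, 9.76 and 1.17 in the E2A-deficient tumours (log2 difference 3.48 ± 0.55, adjusted p = 0.168, limma). Igha read 29, 103, 70, 132 and 115 against 3.75, 12.9, 9.49 and 1.47 (2.13 ± 0.35), and Jchain, the joining chain of secreted antibodies, 32.5, 81.3, 90.4, 125 and 344 against 12, 12.1, 5.05 and 6.85 (2.29 ± 0.47). In all 3 genes the groups did not overlap on the probe set used, and the Tal1-driven tumours lay inside the reference range. Another Igha probe set overlapped, at 21.6 to 111 against 8.24 to 32.1. Of 43 immunoglobulin probe sets, taken without the filter on low signals, 8 had all Tal1-driven tumours above all E2A-deficient ones and 0 the reverse. The shares of all genes, 0.976% and 0.84%, are over filtered genes with 1 probe set each, an unlike unit, and no share over all probe sets was computed. Some of the 8 lay near the pseudocount of 15.9, such as Igkv5-39 at 3.84 to 35.6 against 1.44 to 3.36. None of 12 T-cell receptor probe sets separated the groups either way. Many of these probe sets share related sequences and are not independent. The Ighm probe sets did not read alike. Ighm was at 17.6, 248, 198, 324 and 491 against 0.598, 1.53, 7.28 and 5.29 in one probe set but at 369, 1420, 306, 633 and 3890 against 3600, 760, 72 and 556 in the brightest, and the summed signals of 16 B-cell markers overlapped, at 1260 to 5400 and 1430 to 5300. The part of other cells in these values was not tested.

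**Figure D3:**
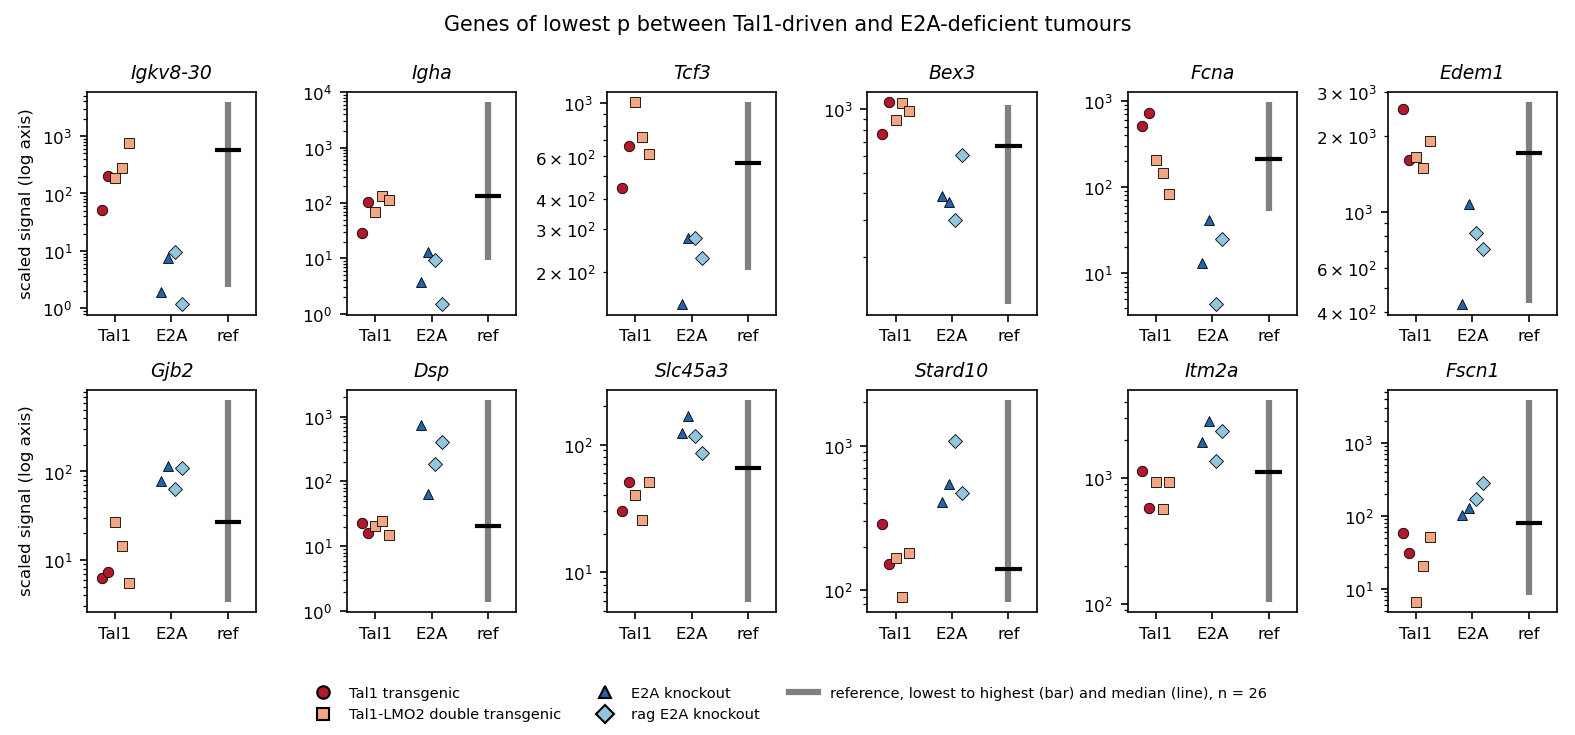
Signal (log axis) of the 12 genes of lowest p, 6 in each direction, in the 5 Tal1-driven and 4 E2A-deficient tumours (points), with a bar from the lowest to the highest of 26 reference tumours and a line at their median. In each gene the points of the groups do not overlap; for Tcf3 the E2A-deficient tumours read 146 to 276 and the Tal1-driven ones 443 to 1010.

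No gene of the Notch pathway passed the adjusted test between the groups. Notch1, the receptor whose activation marks most T-cell leukaemias, read 2190, 2460, 3510, 3800 and 2660 in the Tal1-driven and 3740, 4090, 6480 and 5070 in the E2A-deficient tumours (log2 difference -0.72 ± 0.22, adjusted p = 0.746, limma). Nearly all E2A-deficient values were above the Tal1-driven ones, with the lowest, 3740, below Tal1-LMO2 2, but a second Notch1 probe set read 1030, 1320, 1720, 2440 and 1390 against 920, 1330, 1960 and 1380, a difference of 0.17. Notch3 read 761, 772, 821, 808 and 725 against 1060, 770, 1280 and 1520 (-0.52 ± 0.18). Among the Notch targets, Nrarp, a feedback inhibitor of Notch, had the lowest p. It read 143, 161, 265, 313 and 543 against 1520, 727, 786 and 710 (-1.74 ± 0.37, adjusted p = 0.303, limma), without overlap in either of its 2 probe sets (the second -1.34).

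Il2ra, the interleukin-2 receptor alpha chain of early thymocytes, read 78.4, 126, 542, 178 and 1280 in the Tal1-driven and 993, 792, 677 and 809 in the E2A-deficient tumours (-1.53 ± 0.65). The Tal1-driven tumours ranged widely there, with Tal1-LMO2 3 above all others. Dtx1, a Notch-induced ubiquitin ligase, was at 920 and 961 in the Tal1 transgenic tumours, 2760 to 3240 in the Tal1-LMO2 tumours and 2360 to 6650 in the E2A-deficient ones. Hes1, the Notch-induced repressor, read 15.3, 106, 338, 195 and 456 against 433, 282, 459 and 296. In both genes the Tal1 transgenic tumours held the lowest values and the Tal1-LMO2 tumours overlapped the E2A-deficient ones. Of 23 Notch pathway genes tested, 5 were lower and 0 higher in Tal1-driven tumours at an unadjusted p under 0.05 (against 3.04% and 2.81% of all genes). They were Notch1, Notch2, Notch3, Nrarp and Il2ra, and the median log2 difference was -0.35. The summed signals of the 23 were 8600 to 17000 in the Tal1-driven and 17500 to 24100 in the E2A-deficient tumours. Such a sum gives most weight to bright genes such as Notch1 and Dtx1. The mean log2 signal of the 23 overlapped, with Tal1-LMO2 3 at 8.33 and rag E2A knockout 2 at 8.31. Myc, a Notch target and oncogene, had a difference of -0.27 ± 0.28.

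**Figure D4:**
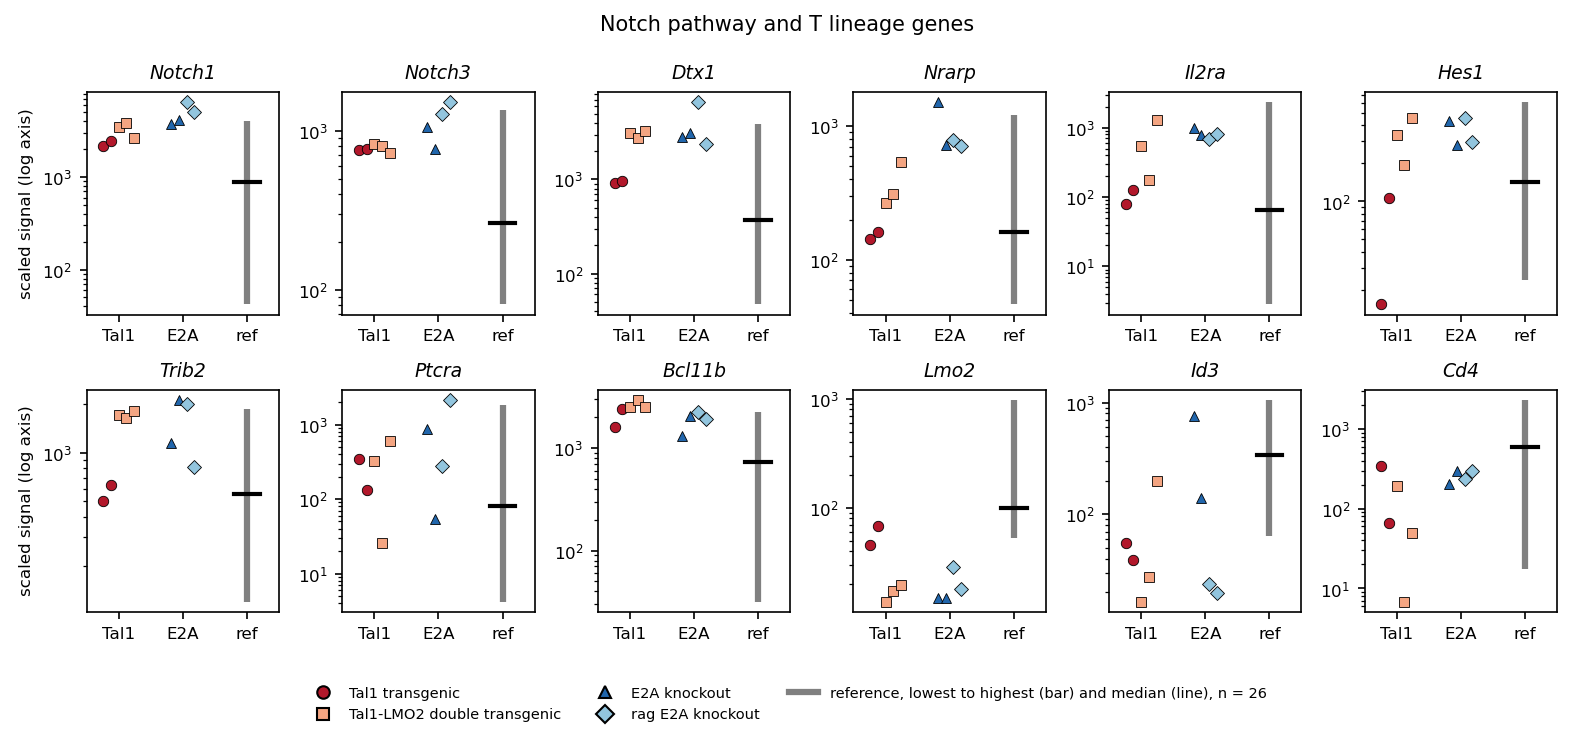
Signal (log axis) of Notch pathway and T-cell development genes in the Tal1-driven and E2A-deficient tumours (points), with a bar from the lowest to the highest reference tumour and a line at the median. Nrarp separates the groups (143 to 543 against 710 to 1520), while Dtx1 and Hes1 overlap.

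Of the stage markers, Cd4 read 346, 66.2, 190, 6.71 and 49.6 in the Tal1-driven and 206, 298, 234 and 301 in the E2A-deficient tumours (-1.48 ± 0.66, adjusted p = 0.844, limma), all below the reference median of 601. Cd8a was at 1090 to 2480 and 461 to 2600, on both sides of its reference median of 1710 in each group. The median log2 difference was -0.39 over 18 genes of double-negative thymocytes, of which 5 were lower at an unadjusted p under 0.05 and 0 higher, and -0.36 over 20 genes of mature single-positive cells, with 4 lower and 0 higher (against 3.04% and 2.81% of all genes). Among the 5, Nrarp, Notch1, Notch3 and Il2ra were also counted above in the Notch pathway list, so the counts of these lists are not separate results. Of 24 T-cell receptor signalling genes, Fyn, a proximal kinase, was the single one at an unadjusted p under 0.05. It read 476, 413, 551, 803 and 634 against 694, 1110, 1290 and 902 (-0.78 ± 0.23).

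No growth or cytokine gene passed the adjusted test. Ccnd2, the D-type cyclin, read 35.6, 545, 52.3, 1440 and 324 in the Tal1-driven and 52.2, 25.5, 15.2 and 19 in the E2A-deficient tumours (log2 difference 2.58 ± 0.87, adjusted p = 0.8, limma). Tal1 transgenic 2 and Tal1-LMO2 2 and 3 were high, and Tal1 transgenic 1 lay within the range of the E2A-deficient tumours, whose mean fell by 2.31 against the reference (adjusted p = 0.0463, limma). Cdkn1c, an inhibitor of cyclin-dependent kinases, read 22.9, 32.8, 43, 23.5 and 20.6 against 81.8, 122, 38.4 and 383 (-1.58 ± 0.47). Socs3, the inhibitor of cytokine signalling, read 356, 263, 103, 222 and 307 against 327, 451, 1380 and 1070 (-1.50 ± 0.45), with both rag E2A knockout tumours above the rest. Of 38 mitosis genes, 9 were higher and 0 lower in Tal1-driven tumours at an unadjusted p under 0.05 (against 2.81% and 3.04% of all genes), with small sizes (median 0.27). Kif11, a spindle motor, read 507, 367, 507, 443 and 460 against 289, 276, 277 and 362 (0.58 ± 0.15), and Bub1b, a checkpoint kinase, gave 0.70 ± 0.25. No member of the lists of 29 MYC target genes and 39 DNA replication genes had an unadjusted p under 0.05, and the 95% interval lay within -1 to 1 for 28 and 38 of them. The class I genes H2-D1 (-1.04 ± 0.36) and H2-K1 (-1.13 ± 0.42) had lower means in Tal1-driven tumours, on probe sets that can depend on strain. The groups overlapped in both, at 696 to 3180 against 2680 to 3520 and at 330 to 1710 against 1530 to 2490. Other H2-D1 probe sets gave -1.08 to 0.30, and other H2-K1 ones -0.98 to -0.49.

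The mean of both groups differed from the reference in 2789 genes at an adjusted p under 0.05 (31.7%; limma, 5 and 4 against 26 tumours), of which 1006 rose (11.4%) and 1783 fell (20.2%), and 2930 were called without the tumours labelled Nup98HoxD13, 2943 without p53 knockout 2 and 2764 without Ikaros Plastic 2. A gene could pass through 1 group alone. The split between rises and falls depends on scaling. The array medians of the 9 tumours, 49.6 to 61.6, all lay below the reference's 62.6 to 106, the median difference over all genes was -0.10, and 36.1% of calls were rises. After quantile normalization the median was 0.04 and 58.1% of 1859 calls were rises. With background as a random block 1396 genes were called. Of the 2789 genes, 146 (5.23%) had an unadjusted p under 0.05 between the groups, near the 5.86% of all genes, and for 2079 (74.5%) the interval of the difference between the groups lay within -1 to 1. Each group alone gave 1568 calls (17.8%; 595 rises, 6.75%, and 973 falls, 11%) for Tal1-driven and 1222 (13.9%; 406 rises, 4.61%, and 816 falls, 9.26%) for E2A-deficient tumours. Without the Nup98HoxD13 tumours, p53 knockout 2 and Ikaros Plastic 2 in turn, these counts were 1709, 1806 and 1611 for Tal1-driven and 1306, 1469 and 1238 for E2A-deficient tumours. The first count was 1022 without Tal1-LMO2 2, 1037 without Tal1-LMO2 3 and 732 without both Tal1 transgenic tumours, and the second 565 without E2A knockout 1, 672 without E2A knockout 2, 784 without rag E2A knockout 1 and 665 without rag E2A knockout 2. After quantile normalization they were 752 (59.8% rises) and 555 (46.7% rises). These comparisons share the reference. Batch or processing date is not stated in the labels, and a batch shared by the 9 arrays cannot be told apart from their genotypes.

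In 20 genes (0.227%) all 9 tumours lay above all 26 reference tumours and in 17 (0.193%) below. Adat2, a tRNA-editing enzyme subunit, read 323 to 626 in the 9 tumours and 56.8 to 258 in the reference (log2 difference 1.86, adjusted p = 2.91e-10, limma). The glycolytic enzyme gene Pgk1 read 7820 to 13400 against 1980 to 5860 (1.22), and Mcm7, of the replicative helicase, 5950 to 8620 against 1560 to 5360 (0.89). Below the reference were Ndufs5, a respiratory chain subunit, at 105 to 164 against 180 to 2480 (-2.41), the transcriptional repressor gene Zeb2 at 1.74 to 29.4 against 33.5 to 407 (-1.79), and the Mediator subunit gene Med1 at 217 to 426 against 481 to 1300 (-1.37). The difference between the groups was at most 0.66 (log2, Zeb2) in these 6 genes. The separation depends on scaling. After quantile normalization 5 of the 20 genes still had all 9 tumours above the reference and 3 of the 17 all below, and 15 and 15 were called. The differences were then 2.00 for Adat2, 0.58 for Pgk1, 0.36 for Mcm7, -2.28 for Ndufs5, -1.44 for Zeb2 and -1.30 for Med1.

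Among named genes, Notch1 rose by 2.68 ± 0.70 (adjusted p = 0.00352, limma), from a reference median of 893 to 2190 or more in every one of the 9 tumours, and Notch3 rose by 1.68 (adjusted p = 0.00486). Dtx1 (2.43), Il2ra (2.48), Trib2 (1.30), Nrarp (1.39) and Ccnd3 (0.72) also rose, and Lfng (-1.21) and Ncstn (-0.37), which act on the receptor itself, fell. This makes 7 rises and 2 falls among 23 Notch pathway genes (against 11.4% and 20.2% of all genes), with a median of 0.00. The counts were 7 and 3 without the Nup98HoxD13 tumours, 7 and 2 without p53 knockout 2, and 7 and 1 without Ikaros Plastic 2. After quantile normalization they were 6 and 1, against 12.3% and 8.83% of all genes. With background as a random block they were 2 and 1 (Notch1, Notch3 and Lfng), against 506 and 890 of 8810 genes. Set side by side, the differences from the reference in Tal1-driven and E2A-deficient tumours were 2.32 and 3.04 for Notch1, 2.00 and 2.85 for Dtx1, 0.53 and 2.26 for Nrarp and 1.71 and 3.25 for Il2ra. The adjusted p was 0.0592, 0.11, 0.463 and 0.167 in the Tal1-driven and 0.0309, 0.0471, 0.00424 and 0.0225 in the E2A-deficient tumours. In the list of 23 this gave 0 rises and 2 falls for the former (against 6.75% and 11% of all genes). For the latter it gave 7 rises and 0 falls (against 4.61% and 9.26%). A threshold passed in one group only is no test of the difference between the groups, which was given above.

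Genes of the double-negative stage rose in 8 of 18 and fell in none (median 1.06), against 11.4% rises and 20.2% falls among all genes. After quantile normalization 7 rose, against 12.3% of all genes. With background as a random block 2 rose, against 506 of 8810 genes. The 8 included Bcl11b, the T-lineage commitment factor, which rose by 1.54 and read 1300 to 2960 against a reference median of 733. Genes of early thymic progenitors fell in 9 of 13 (median -1.01), against 20.2% of all genes. Under either alternative 6 fell, against 8.83% of all genes after quantile normalization and 890 of 8810 with the random block. The 9 included Cd34 (-1.60), Mef2c (-1.55), Lmo2 (-1.73) and Spi1 (-1.06). Lmo2 read 13.6 to 67.9 in the 9 tumours against 52.6 to 978. Of 32 E protein target genes 6 rose and 3 fell (median 0.58; against 11.4% and 20.2% of all genes): Dntt (1.87), Cd3e (0.89), Cd3g (0.94), Hdac7 (0.82), Notch1 and Dtx1 were higher and Cd4 (-1.54), Cd5 (-1.47) and Id3 (-1.97) lower. Quantile normalization left 3 rises and 1 fall, against 12.3% and 8.83% of all genes. With background as a random block 1 rose and 1 fell, against 506 and 890 of 8810 genes. Under neither setting did the list's share of rises exceed that of all genes. Id3 fell under each of these settings, and Rag1 gave 0.93 (adjusted p = 0.249). Tcf12 rose by 0.60 (adjusted p = 0.0118), which was not called after quantile normalization (0.37, adjusted p = 0.124). Of 20 genes of the Tal1 complex and its partners 2 rose and 3 fell (against 11.4% and 20.2% of all genes). After quantile normalization 4 rose and 1 fell (against 12.3% and 8.83%).

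The largest rises were Ifi202b (3.98), H2-T3 (3.93), H2-T18 (3.85), Gdpd3 (3.77), Ly6d (2.94), Spsb4 (2.81), Notch1 and Ifi204 (2.68). H2-T3, a nonclassical class I gene, read 429, 3850, 1340, 1780 and 3090 in the Tal1-driven and 2860, 1590, 2150 and 2750 in the E2A-deficient tumours against a reference median of 96.8. Spsb4, a substrate adaptor of ubiquitin ligases, read 282 to 889 in the 9 tumours against 0.927 to 436. Ifi202b, Ifi204 and H2-T3 are on the list of 19 strain-variable or sex-linked genes, of which 6 rose and 1 fell (against 11.4% and 20.2% of all genes). Strain is not stated in the labels, and its part in these differences was not tested. Ribosomal protein genes rose in 21 of 26 (median 0.69), against 11.4% of all genes. That direction depends on scaling, since after quantile normalization 1 rose and 2 fell (median -0.01), against 12.3% and 8.83% of all genes. DNA replication genes rose in 13 of 39 (median 0.37), and 7 rose after quantile normalization, against the same 11.4% and 12.3%. Immediate early genes fell in 10 of 23 (median -0.75), and 5 fell after quantile normalization, against 20.2% and 8.83% of all genes.

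Most of the 8 largest falls were in genes of stromal, vascular and antigen-presenting cells. They were Rgs5 (-3.38) of pericytes, Igfbp7 (-3.21), Fabp4 (-3.15), Col3a1 (-3.13), Mndal (-2.92), the class II gene H2-Eb1 (-3.02), Col4a1 (-2.90) and Sparc (-2.84). By list, 22 of 33 myeloid, 14 of 24 stromal, 13 of 16 endothelial, 11 of 16 B-cell and 7 of 12 dendritic markers fell and none rose, against 20.2% falls among all genes. After quantile normalization 19, 12, 7, 6 and 5 fell, against 8.83% of all genes. The summed endothelial signal was 350 to 936 in the 9 tumours against 648 to 26100 in the reference (median 1180), and the summed myeloid signal 3440 to 17200 against 11300 to 34900 (median 18400). The summed stromal signal was 1970 to 9090 against 4050 to 46800 (median 9200). In all 9 tumours these sums lay below the reference medians, and the part of the sums in the other differences was not tested. Between Tal1-driven and E2A-deficient tumours they overlapped.

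**Figure D5:**
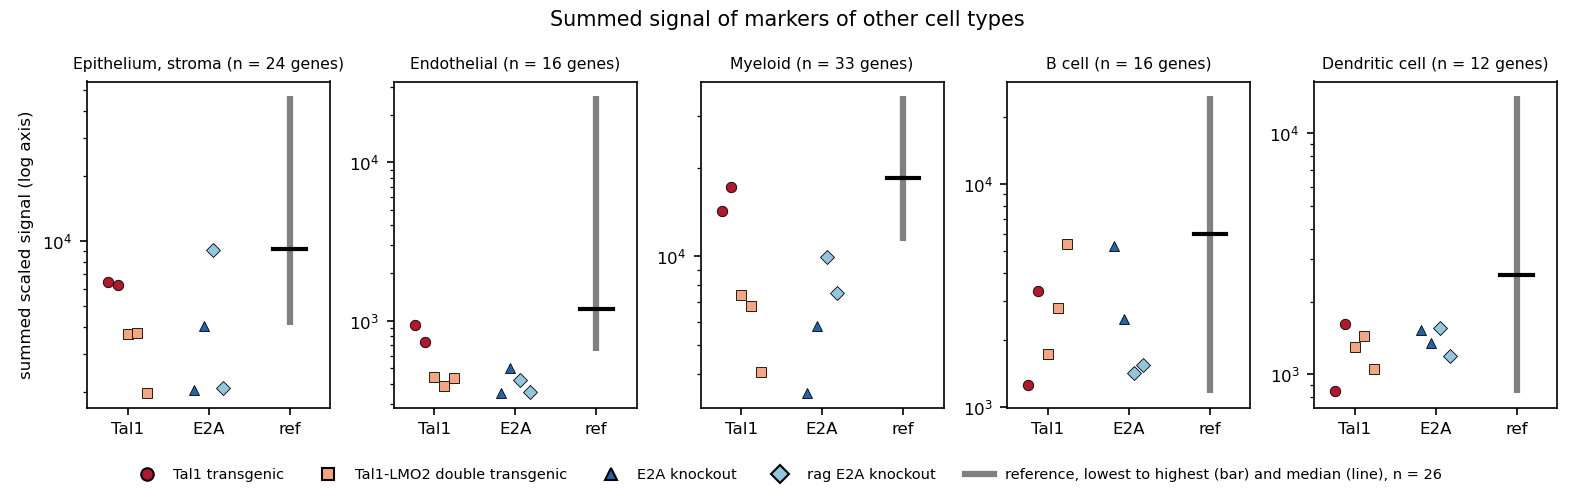
Summed signal (log axis) of stromal (24 genes), endothelial (16), myeloid (33), B-cell (16) and dendritic (12) markers in the Tal1-driven, E2A-deficient and reference tumours. The Tal1-driven and E2A-deficient tumours overlap in every list and lie in the lower part of or below the reference range.

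Within the Tal1-driven group, Tal1-LMO2 tumours differed from Tal1 transgenic ones in 53 genes (0.602%; limma, 3 against 2 tumours), of which 1 rose (0.0114%) and 52 fell (0.59%), and 933 (10.6%) had an unadjusted p under 0.05. The single rise was Igf2bp3, a fetal RNA-binding protein, at 544, 302 and 534 against 59.5 and 25.6 (3.04, adjusted p = 0.00985), and the E2A-deficient tumours read 382 to 640. The falls included stromal and fat genes, with Sparc at 7.3, 57.4 and 5.71 against 1520 and 868 (-5.13), Fabp4 (-4.01), Car3 (-3.75) and Mgp (-3.74), and the macrophage receptor gene Csf1r at 148, 204 and 158 against 783 and 1020 (-2.30). They held 7 of 24 stromal, 3 of 33 myeloid and 2 of 16 endothelial markers. The summed stromal signal was 6410 and 6210 in the Tal1 transgenic and 3710, 3750 and 1970 in the Tal1-LMO2 tumours. The count was 3 with a pseudocount of 1, 0 with the 3′ to 5′ signal ratio as a covariate and 0 without Tal1-LMO2 3, 8 without Tal1 transgenic 1 and 29 without Tal1-LMO2 1. The log2 3′ to 5′ ratio of Gapdh, a measure of RNA integrity, was highest in Tal1 transgenic 1 (0.37). Its part was not tested beyond that covariate.

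Rag E2A knockout and E2A knockout tumours differed in 0 genes (0%; limma, 2 against 2 tumours), with 521 at an unadjusted p under 0.05 (5.91%) and 0 to 6 calls under other settings. The lowest p was that of Nipal2, at 92 and 75.6 against 4.37 and 4.9 (2.27, adjusted p = 0.133). Dstn, an actin-severing protein, read 866 and 971 against 159 and 124 (2.58). The T-cell receptor variable segment Trav9d-3 read 89.9 and 250 against 3120 and 1080 (-3.47). Trgv1 and Trgv4, gamma chain segments, were at 3200 and 2900 in Tal1-LMO2 3 and 2120 and 860 in E2A knockout 1. Trgv1 also read 583 in Tal1 transgenic 2, 453 in Tal1-LMO2 2, 545 in E2A knockout 2 and 907 in rag E2A knockout 1. It read at most 23.8 in the rest. That Trgv4 probe set read at most 34.9 outside Tal1-LMO2 3 and E2A knockout 1, and another read 0.288 to 4.66 in all tumours of both groups.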

How the data were processed

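The deposited table holds 1 intensity for each of 22690 probe sets on each array, on a linear scale, made by the authors with MAS5 per the submitters' processing notes from biotinylated cRNA per the labels' protocols. Its arrays were already scaled: the mean of each, trimmed by 2% at each end, was 250.1. The probe sets' genes came from the platform annotation: 20380 probe sets had 1 symbol, 64 were controls, and 12393 genes were named. Values were used as log2(signal + 15.9), the pseudocount being the 25th percentile of all signals, so a difference understates the change of low genes. A gene was kept when it exceeded the array median on at least 2 arrays, by its probe set of highest mean, which left 8810 genes. No arrays held identical values. The number of arrays limits the precision.

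Groups came from the titles. Differences were tested with limma 3.58.1 in R 4.3.3 (lmFit, eBayes with intensity trend, Benjamini-Hochberg over all 8810 genes, threshold 0.05), with 1 mean per group and, within groups, 1 per background; the steps were tested on simulated data. The genes named were those of lowest p (6 in each direction) where fewer than 6 were called, otherwise the called genes of largest difference (8 in each direction against the reference, 4 within a group), up to 4 of lowest p in each list, and a set of E protein, Tal1 complex and T-cell development genes. Others, such as Jchain, Ccnd3, Trgv1 and Trgv4, the members called in a list, further probe sets, the genes that did not overlap the reference and those called under an alternative, were added after their values were seen. The members and the 30 gene lists (672 genes, 533 tested) were chosen with earlier results of these data known. Lists are described by counts and medians, with no test of their own. The gene for p53 is not reported here.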

Additional observations from a re-analysis of the deposited data

Results flagged for a closer look

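In 7 of 148 groups of values (4.73%) the highest or lowest tumour lay far from the rest of its group, and chance gives about 1 in 20. Among the E2A-deficient tumours, E2A knockout 1 was the lowest for Ifi204 (94) and the highest for Mndal (850, against 0.853 to 4.03 in the other 3), both interferon-inducible genes, and E2A knockout 2 was the lowest for the collagen gene Col4a1 (18.4). Among the Tal1-driven tumours, Tal1 transgenic 2 was the lowest for the histone gene H3c4 (7.41). Tal1 transgenic 1 was the lowest for Gata3 (101, against 353 to 431), a T-lineage transcription factor, and the highest in the log2 3′ to 5′ signal ratios of Gapdh (0.37) and Actb (1.13).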

How the results depend on the processing

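Between Tal1-driven and E2A-deficient tumours the count of called genes was 0, and 1 (Mcts2) with the replicate number as a block, 3 with the 3′ to 5′ ratio as a covariate (Igha, Igkv8-30 and Tcf3), 5 with 14 background means over all arrays (Fcna, Igkv8-30, Tcf3, Mcts2 and Rassf8), 34 without the Tal1-LMO2 tumours, 3 without the E2A knockout tumours (Dsp, Pde9a and Syt13), and 0 (without Tal1 transgenic 2) to 3 (without E2A knockout 1) leaving out 1 tumour at a time. The difference of Cd8a, 0.43, became -0.33 without the E2A knockout tumours, with a range of -0.04 to 0.78 leaving out 1 tumour, and that of Lmo2, 0.37, became -0.09 without the Tal1 transgenic tumours. None of these was called.

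For both groups against the reference, 2789 calls became 1859 with quantile normalization, 1396 with background as a random block and 1316 among bright genes only. For Tal1-driven tumours 1568 became 752, 433 and 794, 2712 with 14 background means and 732 without the Tal1 transgenic tumours. It became 1806 without p53 knockout 2, and 1022 to 1289 leaving out 1 Tal1-driven tumour. For E2A-deficient tumours 1222 became 555, 384 and 544, 2272 with 14 background means and 779 with the replicate block. It became 1469 without p53 knockout 2, and 565 to 784 leaving out 1 E2A-deficient tumour. The settings without the Tal1 transgenic tumours against the reference, with bright genes only, and without p53 knockout 2 or Ikaros Plastic 2 were chosen after seeing the data. For Tal1-LMO2 against Tal1, 53 became 3 with a pseudocount of 1, 94 with one at the median signal, 0 with the replicate block, 0 with the 3′ to 5′ ratio, and 0 to 51 leaving out 1 tumour. For rag E2A against E2A, 0 became 1 without an intensity trend, 4 with 14 background means, and 0 to 6 leaving out 1 tumour; a background left with 1 tumour is assumed to vary like the others. The correlation against disjoint references, 0.652, was 0.564 with the references exchanged, 0.585 with quantile normalization and 0.608 to 0.674 leaving out 1 tumour. The cause of these changes was not tested. Same-numbered tumours shared only a number: their deviations from the group means correlated at -0.278 to 0.252, and the block is not read as pairing. Signals near the pseudocount limit the lowest values, such as those of Pde9a and Igkv8-30.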

Other observations

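Xist, the RNA of the inactive X chromosome, read 2580 to 5340 in Tal1 transgenic 1, Tal1-LMO2 1 and 2, E2A knockout 1 and rag E2A knockout 1, and 15.5 to 43.8 in the other 4 tumours, so both groups held tumours of either kind. Lmo1, a relative of Lmo2, read 172 in E2A knockout 2 and 249 in rag E2A knockout 1, and at most 19.2 in the other 7 tumours. Aldh1b1 had the largest log2 difference among the 45 genes whose groups did not overlap and whose means differed at least 2-fold (-3.54 ± 0.79). Among the same 45 were Bex2 (1.39), beside its paralog Bex3 (1.22), the Ras pathway inhibitor gene Spry1 (-1.23), and H2-DMa of class II antigen loading (-1.02).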
